A study of Homo sapiens with 4 samples.

Results

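The genes described here are the 4 members of the L1 family of neural adhesion molecules, L1CAM, NRCAM, NFASC and CHL1, together with the related NCAM1 and NCAM2. They are 6 of the 20037 protein-coding genes of the RefSeq table for GRCh38.p14 and were given as a list of names. Their peaks are all peaks of the deposited lists whose summit lies in the gene span or within 5 kb of it. The rule found 5 of the 9024 peaks of suspended cells and 1 of the 462 peaks of attached cells. The genes were selected on earlier results of these data, in which the L1CAM peak stood out by the authors' fold in suspended cells, so the counts and levels below are descriptions without a test.

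SPIB-bound DNA was measured by chromatin immunoprecipitation and sequencing (ChIP-seq) in H1703, an established lung squamous carcinoma line that overexpressed the ETS-family transcription factor SPIB in every library. The antibody was Monoclonal ANTI-FLAG M2, and the inputs were sonicated DNA without antibody. There was 1 ChIP library and 1 input library from suspended cells, and 1 of each from attached cells, so no value has a replicate check. The treatment text names 24 h of suspension for all 4 libraries, those labelled attached included, and the condition label was used to separate them. The filtered ChIP libraries held 20766909 tags (suspended) and 21108364 tags (attached). The filtered inputs were less alike, with 21437074 tags (suspended) and 15878452 tags (attached). The labels give neither the vector nor whether the line was 1 clone.

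L1 family proteins are membrane proteins with immunoglobulin and fibronectin domains outside the cell, which bind like molecules, contactins and integrins on neighbouring cells. Inside the cell their tails bind ankyrins and through them the spectrin skeleton. They guide axons and cluster channels at nodes of Ranvier, and L1CAM is also found on many carcinomas, where it is studied for its part in motility and invasion. NCAM1 and NCAM2 have a similar outer part but are a separate family, and NCAM1 is known for carrying polysialic acid.

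Letters next to the annotated start of 3 members are shown because they differ in their distance from a peak. The L1CAM window lies closest to a peak of its own gene, the NFASC window lies at the outer start of the member with most peaks, and the NCAM2 window belongs to a gene with no listed peak. Each runs from 250 bases before to 50 after an annotated start, 5′ to 3′ on the gene's strand, from RefSeq on GRCh38.p14. Capitals mark GGAA, the core of ETS sites, and its reverse complement TTCC.
L1CAM, chrX:153875895-153876194, minus strand: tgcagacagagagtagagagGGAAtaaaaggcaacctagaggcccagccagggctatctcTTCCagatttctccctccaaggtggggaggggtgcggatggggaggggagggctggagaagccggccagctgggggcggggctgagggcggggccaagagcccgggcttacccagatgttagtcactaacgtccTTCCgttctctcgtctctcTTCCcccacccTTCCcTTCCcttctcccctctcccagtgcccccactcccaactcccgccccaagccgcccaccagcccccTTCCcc
NFASC, chr1:204828402-204828701, plus strand: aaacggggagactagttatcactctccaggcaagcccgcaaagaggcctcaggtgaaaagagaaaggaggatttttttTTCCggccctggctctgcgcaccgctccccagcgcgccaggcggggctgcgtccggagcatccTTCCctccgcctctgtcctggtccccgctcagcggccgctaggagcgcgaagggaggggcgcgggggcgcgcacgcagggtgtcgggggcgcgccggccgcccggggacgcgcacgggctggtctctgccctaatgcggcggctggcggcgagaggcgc
NCAM2, chr21:21146912-21147211, plus strand: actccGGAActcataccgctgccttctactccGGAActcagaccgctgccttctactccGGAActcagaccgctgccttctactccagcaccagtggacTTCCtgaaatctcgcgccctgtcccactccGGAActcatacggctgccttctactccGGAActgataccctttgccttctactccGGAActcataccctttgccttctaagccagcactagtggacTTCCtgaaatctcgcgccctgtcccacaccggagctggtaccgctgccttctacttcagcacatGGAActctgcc

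Counted on both strands, GGAA occurred 7 times in the L1CAM window, 2 times in the NFASC window and 9 times in the NCAM2 window. It was present in 95.5% of all 35116 windows of this length, with a median of 3. The longer form GAGGAA, which contains the core and was also searched on both strands, was in none of these 3 windows and in 27.9% of all. GGAAGT, searched in the same way, also contains the core and occurred 2 times in the NCAM2 window, was absent from the other 2, and was in 22.8% of all. The L1CAM peak itself begins beyond its window, with 148 bp between them, so the letters under the peak are not shown. Windows were found for 5 of the 6 genes, 11 in all, and none for NCAM1. The 3 shown do not stand for the rest. Over the 11 windows GGAA occurred 0 to 9 times, and the second NFASC window held it 5 times. GAGGAA was in 2 of the 3 windows of CHL1, which had no listed peak, 1 time in one and 3 times in the other, and GGAAGT was in 1 of them.

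In suspended cells 4 of the 6 genes had a peak, namely L1CAM, NRCAM, NFASC and NCAM1, whereas in attached cells L1CAM had one and the other 5 had none. CHL1 and NCAM2 had no listed peak in either condition. By the same rule 28.6% of all protein-coding genes had a peak in suspended cells and 1.86% in attached cells. At an FDR of at most 5% the family had 2 genes with a peak in suspended cells, L1CAM and NFASC, and 0 in attached cells, where all protein-coding genes gave 24.2% and 0.105%. Over all peaks NFASC held 2 peaks and the other 3 genes with a peak held 1 each. All 5 suspended summits lay inside the gene spans and none in the flanks. The summit nearest to the limit of the rule on the inner side was 9.06 kb inside NFASC. The nearest peaks on the outer side were 11.2 kb below the L1CAM span (8 tags), 17.9 kb above it (22 tags) and 22.1 kb above the NFASC span (13 tags).

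**Figure D1:**
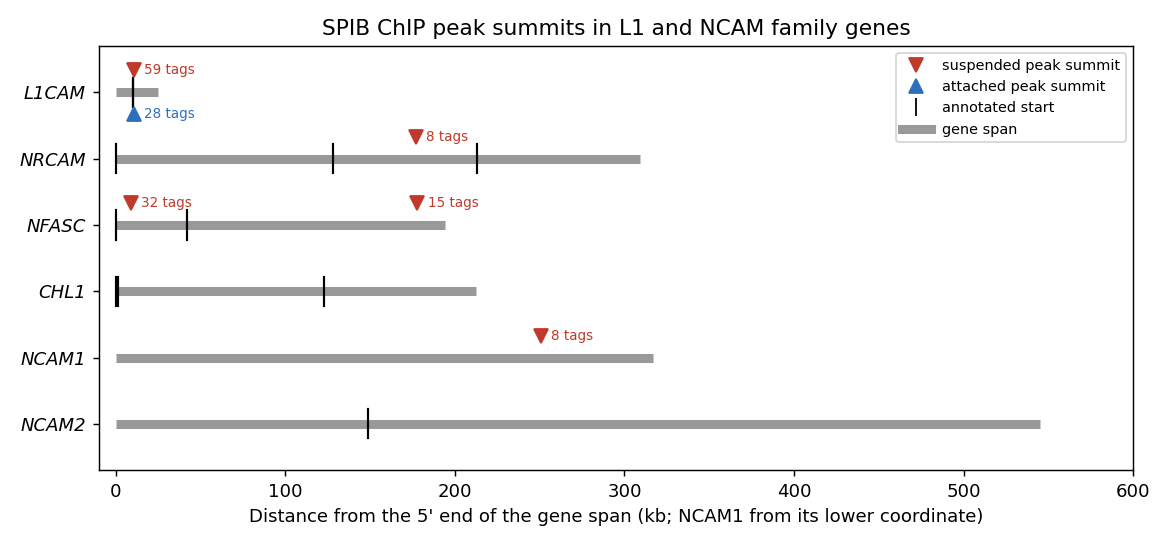
Positions of peak summits in the 6 gene spans, in kb from the 5′ end (NCAM1 from its lower coordinate), with suspended summits as red triangles above the span, attached summits as blue triangles below it and annotated starts as black ticks. The L1CAM summits of suspended cells (59 tags) and attached cells (28 tags) stand beside annotated starts, and the other suspended summits (8 to 32 tags) stand away from them.

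L1CAM, the founding member of the family, spans chromosome X, 153861514 to 153886173 (hg38), 24.7 kb on the minus strand. Its suspended peak ran from 153875290 to 153875746 and held 59 tags in 457 bp (exact Poisson 95% interval 44.9 to 76.1, covering counting error only). Its attached peak ran from 153875345 to 153875623 and held 28 tags in 279 bp (18.6 to 40.5). The suspended count was the higher of the pair and the intervals did not overlap. The attached peak lay wholly within the suspended one, and their summits were 14 bp apart.

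The L1CAM site stood at a start that the gene's outer ends do not show. The suspended summit was 10.6 kb from the nearer end of the span, but 388 bp downstream of the annotated start at 153875944, and the attached summit was 374 bp downstream. The suspended peak covered 198 to 654 bp downstream of that start and the attached peak 321 to 599 bp. No other gene reached the summit within 5 kb, with the antisense transcript L1CAM-AS1 beginning 5116 bp from the suspended summit. Exons and introns were not assigned, because the tables used give none. Of the 5 family peaks of suspended cells, none had its summit within 1 kb of a span end, and the L1CAM peak had it within 1 kb of an annotated start of its own gene. On chromosomes with start windows in the table, 36.7% of suspended and 38.2% of attached summits lay within 1 kb of a span end. The shares within 1 kb of an annotated start were 29.2% of suspended and 29.7% of attached summits. The L1CAM kind of position, near a start but over 1 kb from every span end, was that of 286 of 8612 suspended summits (3.32%) and 15 of 435 attached summits (3.45%).

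Within the suspended list the L1CAM peak ranked 7th of 9024 by the authors' fold (31.15, ChIP tags over local background) and 9th by their score (404.72, which is −10 × log10 p from MACS). By plain tags it ranked lower, at 363. Tags were dense in it, at 12.9 per 100 bp against a list median of 5.74. Of the 9 suspended peaks with a fold above 30, 8 had a distance to an annotated start, and the L1CAM peak was the 1 of these within 1 kb, where the median fold of 2514 peaks was 7.28. The cut of 30 lies just below the L1CAM fold of 31.15. Because L1CAM was selected on its suspended fold, its place among the highest folds is a description and no finding. Within the attached list it ranked 59th of 462 by score (91.05) and 321st by fold (12.64). The authors' false discovery rate (FDR) was 0% for the suspended peak and 18.64% for the attached one, in a list where 305 peaks had 100%. Fold and FDR depend on the input, and the inputs differed in depth. The median fold was 9.10 in the suspended and 15.33 in the attached list, so these values are not directly comparable between the lists.

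**Figure D2:**
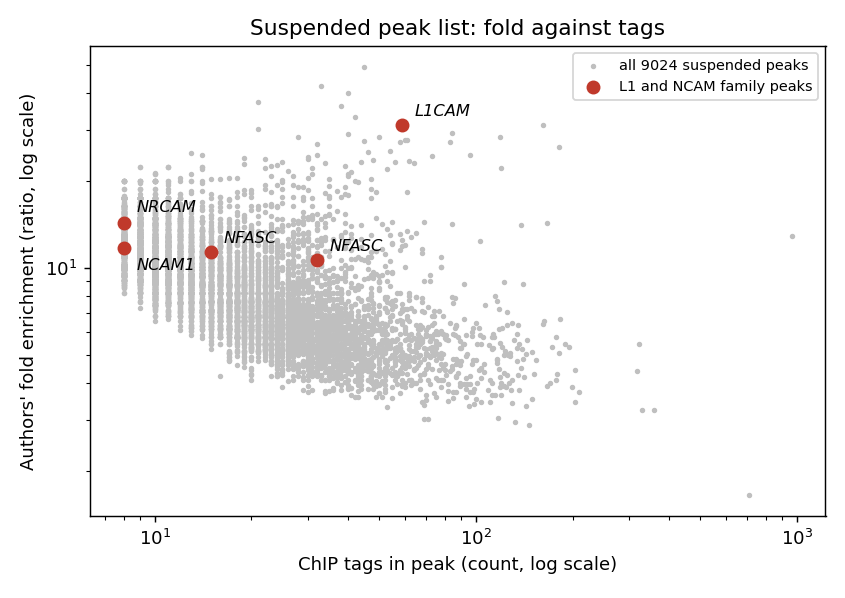
The authors' fold (ratio) against ChIP tags for all 9024 suspended peaks, both on log scales, with the 5 family peaks in red. L1CAM (59 tags, fold 31.15) lies above nearly all peaks with as many tags, and the other 4 lie within the body of the list with folds of 10.63 to 14.34. L1CAM was selected on this fold, so its place is a description and no finding.

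Depth-scaled tags are tags per 1000000 filtered ChIP tags of the library. The L1CAM peak held 2.84 depth-scaled tags in suspended cells and 1.33 in attached cells, a ratio of 2.14 (exact 95% interval 1.34 to 3.49). Because the suspended peak was also called wider, the ratio per bp of peak was 1.31 (0.821 to 2.13), an interval that includes 1. Among the 210 sites called in both lists, L1CAM ranked 30th by the first ratio and 55th by the second, where the medians were 1.36 and 1.10. Tags in a common window cannot be counted from peak lists. L1CAM was selected on its suspended fold, which is made from suspended tags. Its ratios and ranks are therefore descriptions from 1 library per condition and no finding.

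By depth-scaled tags in both ChIP libraries, 4 protein-coding genes of 203 with a shared site were nearest to L1CAM (Euclidean distance on the log2 scale over 2 libraries). CPLX2, which encodes a complexin of synaptic vesicle release, had 2.94 depth-scaled tags in suspended and 1.28 in attached cells (distance 0.071). FNTA, a farnesyltransferase subunit gene, had 2.55 and 1.33 (0.155). HNRNPA0, an RNA-binding protein gene, had 2.84 and 1.18 (0.163). DEPDC5, a subunit gene of the GATOR1 complex that restrains MTORC1, had 2.60 and 1.47 (0.195), at a site it shares with PRR14L. Their 53 to 61 tags in suspended cells and 25 to 31 tags in attached cells all lay within the Poisson intervals of L1CAM. The genes were chosen by these same tags, so this is no separate result. Their folds in suspended cells were 18.21, 21.95, 6.41 and 12.94. L1CAM, at 31.15, was selected on this value, so its higher fold is no result of the comparison.

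**Figure D3:**
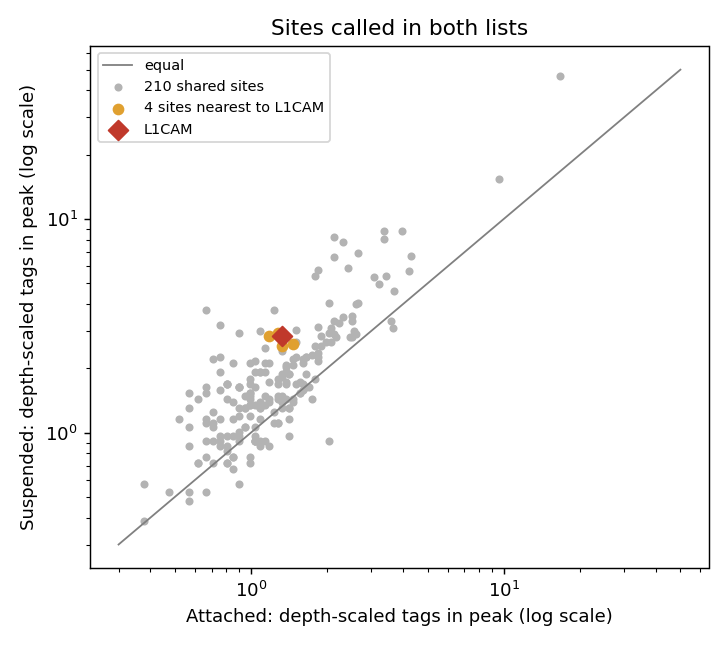
Depth-scaled tags (tags in the peak per 1000000 filtered ChIP tags) at the 210 sites called in both lists, suspended cells on the vertical and attached cells on the horizontal axis, both on log scales, with the line of equality. L1CAM (red diamond) lies above the line, with 2.84 in suspended and 1.33 in attached cells, among the 4 sites nearest to it (orange). It was selected on its suspended fold, so its place above the line is a description.

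NFASC encodes neurofascin, which anchors channels and ankyrin at axon initial segments and nodes of Ranvier. The gene spans chromosome 1, 204828652 to 205022822 (194 kb, plus strand), and had 2 suspended peaks. The first, at 204837465 to 204837918, held 32 tags in 454 bp (21.9 to 45.2), at a fold of 10.63 and 0.27% FDR. Its summit was 9.06 kb downstream of the outer start, 4.67% of the way along the span. The second, at 205006342 to 205006653, held 15 tags in 312 bp (8.40 to 24.7), at a fold of 11.34 and 4.86% FDR. It lay 91.6% of the way along, 16.3 kb from the far end. The first peak held more tags and was wider, but the intervals overlapped and the folds were close. Neither was in the attached list.

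NRCAM encodes NrCAM, a partner of neurofascin at nodes and of neuropilins in axon guidance. It spans chromosome 7, 108147649 to 108456720 (309 kb, minus strand), with a suspended peak at 108279688 to 108279849. The peak held 8 tags in 162 bp (3.45 to 15.8) at a fold of 14.34 and 5.69% FDR. The summit lay 36.4 kb from the nearest annotated NRCAM start and 132 kb from the nearer span end. NCAM1, also known as CD56, spans chromosome 11, 112961420 to 113278436 (317 kb). Its suspended peak, at 113211812 to 113211990, held 8 tags in 179 bp (3.45 to 15.8) at a fold of 11.7 and 5.35% FDR, and lay 66.5 kb from the nearer span end. A count of 8 is the lowest in the suspended list, held by 1114 of its peaks (12.3%). Among these 1114 peaks the median fold was 12.42, with 11.7 at NCAM1 lower and 14.34 at NRCAM higher, where the median of the whole list was 9.10.

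**Figure D4:**
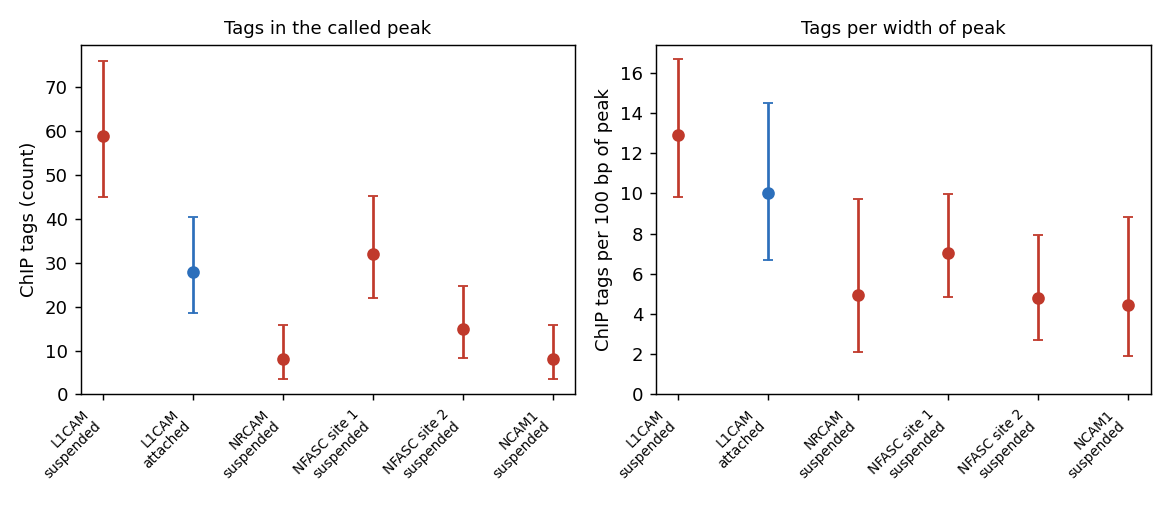
ChIP tags (left) and ChIP tags per 100 bp of called peak (right) for each family peak, with exact Poisson 95% intervals as bars, suspended in red and attached in blue. L1CAM holds 59 tags in suspended and 28 in attached cells without overlap of the intervals on the left, whereas on the right its 12.9 and 10.04 tags per 100 bp overlap. L1CAM was selected on its suspended fold, so neither panel is a test.

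The 4 suspended peaks outside L1CAM held 8, 8, 15 and 32 tags in 162 to 454 bp. Of the suspended peaks on chromosomes with start windows, 4425 lay over 10 kb from an annotated start, with a median of 11 tags, a width of 204 bp and a fold of 10.2. The 2514 peaks within 1 kb of a start had a median of 23 tags and 375 bp. The first NFASC peak, with 32 tags in 454 bp, was 9.06 kb from its nearest start and falls in neither class. None of the 4 peaks outside L1CAM was in the attached list. Of suspended peaks with a score from 50 to 60, the range of NRCAM (51.58), NCAM1 (52.74) and the second NFASC peak (54.06), 18 of 4761 (0.378%, Clopper-Pearson 95% interval 0.224 to 0.597) were also called in attached cells. Of those from 100 to 200, the range of the first NFASC peak (123.55), 87 of 620 were (14.0%, 11.4 to 17.0). Of those from 200 to 400, 37 of 56 were (66.1%, 52.2 to 78.2). All 9 with a score of at least 400, L1CAM among them, were called in both lists (lower bound 66.4%). The cut of 400 lies just below the L1CAM score of 404.72, so this share is a description and no separate result about L1CAM. Because peaks of low score were seldom called in both lists, a gene without an attached peak is not shown to be unbound in attached cells.

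CHL1, the close homologue of L1, and NCAM2, known from olfactory axons, lay in stretches with no listed peak. CHL1 spans chromosome 3, 196763 to 409417 (213 kb), near the tip of the chromosome. The first suspended peak on chromosome 3 was at 3.63 Mb, beyond all 8 protein-coding genes that end before it. The contactin genes CNTN6 and CNTN4, picked out after their values were seen, lie between CHL1 and that peak and had none in either condition. NCAM2 spans chromosome 21, 20998409 to 21543329 (545 kb), within 11.5 Mb without a suspended summit, a stretch that held 15 protein-coding genes. Of 8957 intervals between neighbouring suspended summits, with assembly gaps not removed, this was the 11th longest, and the median was 108 kb. Mappability and DNA copies were not measured here, and their part in these empty stretches was not tested.

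Gene span differed among the 6 genes, and longer genes more often held a peak. In suspended cells 24.3% of protein-coding genes under 50 kb had a peak, 34.9% of those from 50 to 150 kb, 41.9% from 150 to 300 kb and 49.8% from 300 kb. In attached cells the shares were 1.43%, 2.15%, 3.23% and 5.56%. L1CAM belongs to the first class, NFASC and CHL1 to the third, and NRCAM, NCAM1 and NCAM2 to the last. The suspended shares of their classes add up to 2.58 genes, where 4 had a peak. With 6 genes chosen after results were known, this is no finding about the family. Per 100 kb of span the family had 0.312 suspended peaks and all protein-coding genes together 0.628, counting peaks in the 5 kb flanks. The length of the flanks was left out, and a peak near several genes counted for each of them. Short genes gain most from this, and no family peak lay in a flank, so the 2 values are not directly comparable.

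**Figure D5:**
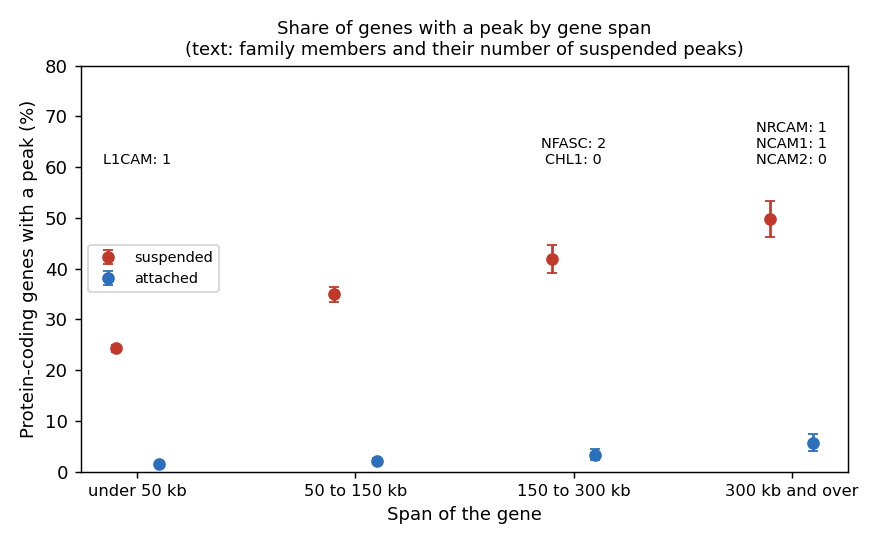
Share of protein-coding genes (%) with a peak in the span or within 5 kb, by gene span, with Clopper-Pearson 95% intervals, suspended in red and attached in blue. The suspended share climbs with span from 24.3% to 49.8%, and the text above each class names its family members with their number of suspended peaks.

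The proteins that L1 and NCAM molecules work with were described from a list of 45 genes, which included ankyrins, spectrins, ERM proteins, integrins, proteases that shed L1CAM, and polysialyltransferases. In suspended cells 20 of the 45 had a peak (44.4%) and in attached cells 1 (2.22%), where all protein-coding genes gave 28.6% and 1.86%. The list's genes were longer, with a median span of 109 kb against 24.1 kb, and the suspended shares of their span classes add up to 16.4 genes. The gene with an attached peak was CNTNAP2, which encodes the contactin-associated protein Caspr2 of the juxtaparanode. Its site had 20 tags in 385 bp in suspended cells (12.2 to 30.9) and 18 tags in 285 bp in attached cells (10.7 to 28.4), with overlapping intervals. The authors' FDR was 1.72% for the suspended and 100% for the attached peak. The attached summit lay in the 5 kb flank, so that with no flank 0 genes of the list had an attached peak. With no flank 17 genes of the list had a suspended peak. The CNTNAP2 summits were 17 bp apart, the suspended one 837 bp and the attached one 854 bp from an annotated CNTNAP2 start.

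The highest suspended folds of the list were those of RDX, SEMA3A, NUMB and SPTBN4. RDX, which encodes the actin linker radixin, had 10 tags at a fold of 19.87, 59.9 kb from its nearest annotated start. SEMA3A, a repellent ligand whose receptor complex includes L1CAM and neuropilin, also had 10 tags at 19.87. NUMB, an endocytic adaptor gene, had 9 tags at 18.73. SPTBN4, which encodes the beta spectrin of axon initial segments that binds ankyrin, had 25 tags (16.2 to 36.9) at 18.73. Its summit was 260 bp from an annotated SPTBN4 start, and the other 3 had 9 to 10 tags. Among the ankyrin genes, picked out after their values were seen, ANK2 had 1 suspended peak of 8 tags, ANK3 had 3 suspended peaks and ANK1 had none.

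Other immunoglobulin adhesion genes formed a list of 54. In suspended cells 12 had a peak (22.2%) and in attached cells 1 (1.85%), against 28.6% and 1.86% of all protein-coding genes. Their median span was 124 kb, and the suspended shares of their span classes add up to 20.3 genes. PTPRM, a receptor phosphatase that binds itself on the next cell, had an attached peak of 12 tags (6.20 to 21.0, FDR 100%), and its 2 suspended peaks lay elsewhere. The highest suspended folds of the list were at OPCML, a lipid-anchored adhesion gene of the IgLON family (21.98, 14 tags), the netrin receptor gene DCC (14.9, 10 tags), the receptor phosphatase gene PTPRT (14.9, 9 tags) and DSCAML1 (14.56, 14 tags). All 4 had counts of 9 to 14 tags, and the peaks of OPCML, DCC and PTPRT lay over 100 kb from the nearest annotated start of their own gene. CNTN2, whose contactin binds L1CAM and NrCAM, lies beside NFASC, and the peak of 13 tags found 22.1 kb above the NFASC span is inside CNTN2, 1702 bp from an annotated CNTN2 start. It was named after its value was seen.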

How the data were processed

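ChIP-seq libraries were grouped by the condition and antibody in their titles. Per the file headers, the authors ran MACS 1.4.2 for suspended and attached cells separately, with the matching input as control and a p cutoff of 1e-05. The submitters' processing notes name hg38 as the build. No aligner is named, and it is not given in the sources used. The deposited tags are a count of ChIP tags per peak, not normalized. The deposited fold is a ratio of ChIP tags over local background. The deposited score was read as −10 × log10 p from its place and its lowest value, because its column name is damaged. The deposited FDR is a percent that MACS makes with ChIP and input exchanged.

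Summits were assigned to RefSeq gene spans with 5 kb flanks. Starts came from 35116 RefSeq windows, with peaks on chromosome 8 not used for distances to starts. Lists shared a site where peaks overlapped by at least 1 bp. Poisson, binomial and Clopper-Pearson intervals are exact, at 95%, and cover counting error alone. No p-value is given, since each group had 1 library. Assignment and overlap were tested on simulated data. Genes named were the 6 members, list genes with an attached peak, up to 4 more per list by suspended fold, and the 4 genes nearest to L1CAM. Ankyrin genes, CNTN2, CNTN4, CNTN6 and the genes at peaks around L1CAM were named after their values were seen. Members and lists were chosen with earlier results of these data known. Python 3.11.15, numpy 2.4.6, pandas 2.3.3, SciPy 1.17.1 and matplotlib 3.10.9 were used.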

Additional observations from a re-analysis of the deposited data

How the results depend on the processing

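Of 49 alternative values for 11 results, 35 stayed within 1.5 times the main count or within its interval and 14 moved. No paired analysis was possible because each condition had 1 ChIP library, and no replicate could be left out. Flanks of 0 or 10 kb and counting any base of a peak left the family at 4 genes and 5 peaks in suspended and 1 gene and 1 peak in attached cells. At an FDR of at most 5% the family had 2 genes and 3 peaks in suspended cells and 0 genes and 0 peaks in attached cells, with 0 shared sites, and both other lists had 0 genes in attached cells. That limit left 24.2% of all protein-coding genes with a suspended and 0.105% with an attached peak. In peaks at or above the median score, 2 genes and 2 peaks of the family and 7 other immunoglobulin adhesion genes remained in suspended cells. With no flank 0 protein partner genes had an attached peak, and with 10 kb 2 other immunoglobulin adhesion genes did. The L1CAM ratio was 1.31 per bp. Counting starts in place of span ends, chosen after seeing the data, gave 1 suspended family peak near an end in place of 0. These counts rest on few tags, with 8 to 15 in 3 of the 5 suspended peaks.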

Other observations

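The L1CAM site stood among other suspended peaks on the X chromosome. Within 100 kb of its suspended summit there were 4 further suspended peaks, where the median over 8981 suspended peaks was 1 and 18.4% had 4 or more. The nearest lay 25.2 kb away between genes, with 8 tags and a fold of 13.47. The next, 28.5 kb away with 22 tags and a fold of 8.74, lay within 5 kb of AVPR2, the kidney vasopressin receptor gene, and ARHGAP4. A peak in PDZD4 had 10 tags and a fold of 8.78, and one at IDH3G and SSR4 had 23 tags and a fold of 8.24, 248 bp from an annotated IDH3G start. All 4 had fewer tags than the L1CAM peak. Their folds were also lower, but L1CAM was selected on its fold. None was called in attached cells, as for most suspended peaks, of which 2.35% overlapped an attached peak. No other attached peak lay within 100 kb of the L1CAM site, in a list of 462 peaks. The NRCAM and NCAM1 peaks and the first NFASC peak had no other suspended peak within 100 kb, like 33.3% of all suspended peaks, and the second NFASC peak had 1.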
